A study of Caenorhabditis elegans with 12 samples.

Results

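The F-box B genes of Caenorhabditis elegans were taken as all genes whose name begins with fbxb-, which gave 109 of the 42048 genes in the deposited tables. Members were taken by name alone, but earlier results of these data were known when the family was chosen. All 109 were found in the annotation, 104 as protein-coding genes and 5 as pseudogenes. Chromosome II held 62 of them, V held 16, I held 10, III and IV held 9 each, and X held 3.

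F-box proteins are the substrate receptors of SCF ubiquitin ligases, in which the F-box binds a SKP1-like adaptor and a second domain selects the protein to be ubiquitinated. Nematodes have large families of F-box genes, many of them in arrays of neighbouring copies, and the classes A, B and C are told apart by the motif that accompanies the F-box. Endogenous secondary small RNAs, made by RNA-dependent RNA polymerases on messenger RNA templates, carry a 5′ triphosphate and guide Argonaute proteins to the transcripts they match. What was measured here is therefore small RNA that mapped to each F-box B gene, not the messenger RNA or the protein of that gene.

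Small RNAs were sequenced from whole worms at the young mother stage that had been synchronized by starvation and kept at 20 °C. Every group, the wild type included, was fed HT115 bacteria making a 400 nt double-stranded RNA against pos-1, so no group without that feeding enters the comparisons. The strains were the wild type N2, a double mutant carrying meg-3(ax3055) and meg-4(ax3052), which lacks 2 disordered proteins of the germline P granules, and rde-11(hj37), a mutant of a zinc finger protein needed to amplify the response to fed double-stranded RNA. RNA of each strain was cloned either after 5′ polyphosphatase, which lets triphosphorylated secondary small RNAs enter the library (treated RNA), or without it (untreated RNA), with 2 libraries in each of the 6 groups.

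Libraries held 3884534 to 5278777 reads assigned to genes. Levels are given in fpm, fragments scaled to the total of assigned reads in the library, where 1 read was worth 0.189 to 0.257 fpm. To check the labels, meg-4 small RNAs stood at 72.0 ± 0.831 fpm (SD, n = 2) in treated RNA of N2 and at 0.189 ± 0.268 fpm in the double mutant. Small RNAs of the rde-11 gene stood at 633 ± 3.33 fpm in N2 and 751 ± 10.04 fpm in the rde-11 mutant (limma adjusted p = 0.132), so they do not check that label, and at 4359 ± 10.9 fpm in the double mutant (log2 change 2.78, SE 0.08, limma adjusted p = 1.6e-05). Those of pos-1, which was targeted by the feeding, were at 8292 ± 668 fpm in N2, 2448 ± 464 fpm in the double mutant and 1214 ± 138 fpm in rde-11. All 8 microRNAs of the embryo and oocyte list (mir-35 to mir-42) and all 4 of the soma list (mir-1, mir-124, lin-4 and let-7) were present in every group. Replicates differed by more than counting noise in each group, and those of the treated double mutant differed most (chi-square per degree of freedom 12, against 3.10 to 7.59 in the other groups). The titles of the second replicates of the double mutant carry another strain number than the genotype label, and both replicates were kept in 1 group because their genotypes are the same. Nothing in the labels says that replicates came from separate cultures, so p-values measure only the spread between these libraries.

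In treated RNA of N2, F-box B genes together held 6697 ± 13.2 fpm, 0.671% and 0.669% of the reads of the 2 libraries. The family total was 4974 ± 231 fpm in the double mutant and 5764 ± 14.7 fpm in rde-11. The N2 libraries stood at 6706 and 6687 fpm, the double mutant libraries at 5138 and 4811 fpm and the rde-11 libraries at 5775 and 5754 fpm. The 3 strains did not overlap, with N2 highest and the double mutant lowest. With 2 libraries against 2, an exact two-sided permutation test cannot give a p under 0.333, so no p is given for totals. In whole worms, fewer cells of a type and less RNA per cell cannot be told apart.

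The family total was carried by few members. fbxb-14 and fbxb-97 alone held 56.6% ± 0.316 of it in N2, 66.7% ± 0.184 in the double mutant and 60.4% ± 0.0851 in rde-11. Without the 4 highest members, fbxb-14, fbxb-97, fbxb-85 and fbxb-100, the remaining genes summed to 1745 ± 17.7 fpm in N2, 921 ± 51.5 fpm in the double mutant and 1384 ± 14.1 fpm in rde-11. N2 then held 1.90 times the level of the double mutant, against 1.35 times for the whole family, and 1.26 times that of rde-11, against 1.16 times. Protein-coding genes as a whole held 1.04 times as much in N2 as in the double mutant and 0.950 times as much as in rde-11. The sum over F-box A genes stood at 7663 ± 10.8 fpm in N2, 5685 ± 277 fpm in the double mutant and 8358 ± 342 fpm in rde-11, and that over F-box C genes at 2281 ± 95.2, 2643 ± 64.4 and 2086 ± 31.7 fpm.

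The levels of single members covered more than 3 orders of magnitude. In treated RNA of N2, 81 members had a mean of at least 1 fpm, against 68 in the double mutant and 73 in rde-11. fbxb-28 had no read in any of the 12 libraries, where 3 reads, the limit that a count of 0 allows for counting error alone, would be 0.568 to 0.772 fpm. Taken over all 6 treated libraries, 12 members averaged 50 fpm or more, 19 lay between 10 and 50 fpm, 47 between 1 and 10 fpm, and 31 below 1 fpm.

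fbxb-14 had the most small RNAs of the family, per length as well as in all. It stood at 1907 and 1894 fpm in treated N2, 2136 and 2000.3 fpm in the double mutant, and 2049 and 1994 fpm in rde-11. Both mutants lay slightly above N2 without overlap, and neither difference passed the test (log2 change 0.12, SE 0.08, limma adjusted p = 0.532 in the double mutant, and 0.09, SE 0.08, adjusted p = 0.547 in rde-11). Other scalings turned the sign of both. fbxb-14 overlaps the annotated gene W08F4.12, and reads of the 2 genes cannot be told apart without the strand.

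fbxb-97 stood next, at 1901 and 1873 fpm in N2, 1297 and 1203 fpm in the double mutant and 1435 and 1484 fpm in rde-11. N2 was highest, the double mutant lowest, and no strain overlapped another. Its small RNAs fell in the double mutant by 0.59 on the log2 scale (SE 0.09, limma adjusted p = 0.00649) and in rde-11 by 0.37 (SE 0.09, limma adjusted p = 0.0155). The authors' deposited table gives log2 changes of -0.39 (adjusted p = 0.619) and -0.47 (adjusted p = 0.0201). Its call in the double mutant ended with the median gene centred and in DESeq2, and that in rde-11 with microRNAs centred, with no filter and without N2 replicate 1.

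Next in order were fbxb-85 and fbxb-100. fbxb-85 stood at 610.3 and 614 fpm in N2, 448 and 423 fpm in the double mutant and 459 and 502 fpm in rde-11, and missed the threshold in both mutants (-0.49, SE 0.12, with a limma adjusted p of 0.0538, and then -0.35, SE 0.10, with 0.0502). fbxb-100 stood at 555 and 548 fpm in N2, 299 and 300.4 fpm in the double mutant and 439 and 399.9 fpm in rde-11. All 3 strains were separate for fbxb-100, which fell in the double mutant (-0.88, SE 0.13, limma adjusted p = 0.0056) and in rde-11 (-0.40, SE 0.11, limma adjusted p = 0.0337). Divided by exon length, fbxb-100 was higher in N2 (565 fpm per kb) than fbxb-85 (475 fpm per kb), and fbxb-14 (2975 fpm per kb) stood further above fbxb-97 (1665 fpm per kb) than by unscaled level. The call of fbxb-100 in the double mutant ended with the median gene centred and in DESeq2, and that in rde-11 with microRNAs centred, with no filter, with all strains in 1 fit and without N2 replicate 1, N2 replicate 2 or rde-11 replicate 2. The values of fbxb-100 may include reads of Y63D3A.12, which overlaps it. fbxb-24 stood at 183 and 188 fpm in N2, 138 and 108 fpm in the double mutant and 171 and 146 fpm in rde-11. N2 was highest without overlap, and neither change was called (-0.60, limma adjusted p = 0.124, and -0.23, limma adjusted p = 0.313). fbxb-24 overlaps faah-4.

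**Figure D1:**
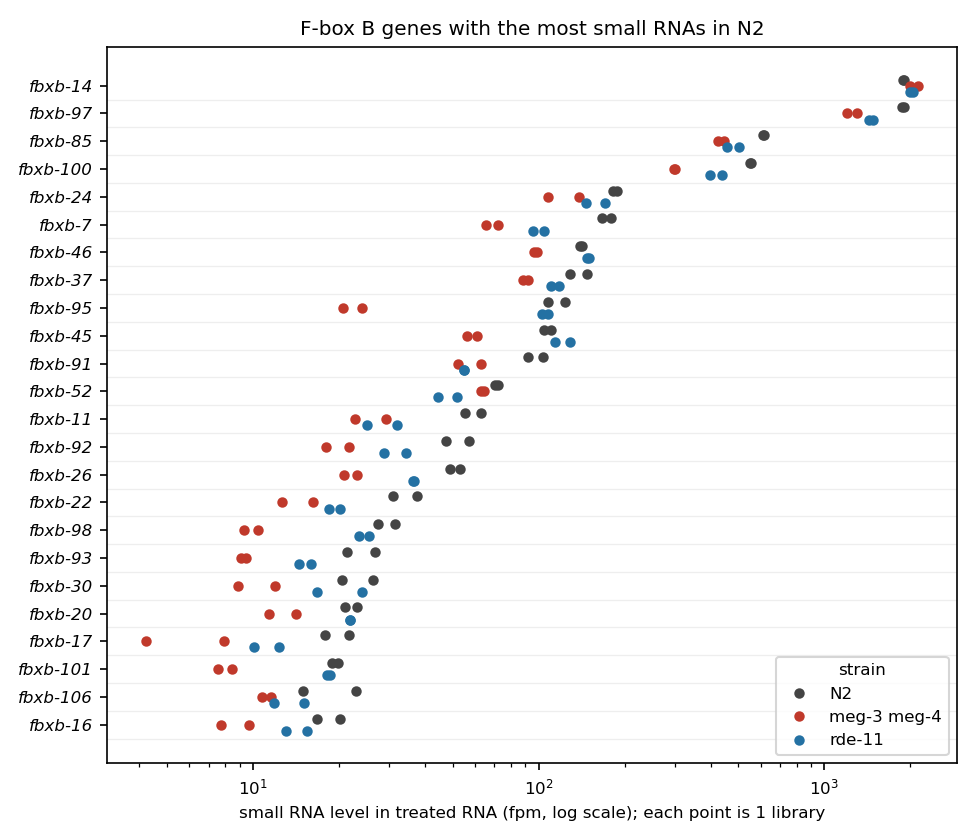
Small RNA level in treated RNA of the 24 F-box B genes with the most small RNAs in N2; the horizontal axis is fpm on a log scale, each point is 1 library, and colour gives the strain. fbxb-14 lies near 2000 fpm in every strain, while the meg-3 meg-4 points of fbxb-95 lie at 20.7 and 24.1 fpm, to the left of all N2 and rde-11 points.

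In treated RNA of the double mutant, small RNAs of 22 F-box B genes fell and those of none rose. These were 22 of 77 members tested, where 6.72% of all genes tested fell and 1.54% rose. Among protein-coding genes, the class of most members, 8.93% fell and 1.87% rose. Levels were compared as log2(fpm + 1) in limma for genes that averaged 1 fpm or more over the 4 libraries, with adjustment over all genes tested and a threshold of 0.05. Of the 22 falls, 18 were at least 2-fold on this scale, which understates changes of low members, and 21 had a mean of at least 1 fpm in both strains. The exception was fbxb-47, which passed the filter through N2. Of the 55 tested members that were not called, 3 lay above 0, fbxb-14, fbxb-3 and fbxb-39, of which the last pair is named for this count after the values were seen. No member was called higher by edgeR or DESeq2 on the recovered reads either.

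The shift reached beyond the called members, since the 55 tested members not called had a median change of -0.62. The median change of the 77 tested members was -0.79, against -0.13 for all genes and -0.15 for protein-coding genes. Their middle range ran from -1.08 to -0.52, the 25th and 75th percentiles, and that of all genes from -0.43 to 0.14. In 65 members every double mutant library lay below every N2 library, and in 1 member every one lay above, where 33.8% and 12.5% of all genes tested did so. Of the 77 members, 67 had a mean of at least 1 fpm in both strains. The median and counts also include the others, which passed the filter through 1 strain. Centring each library on its median gene or on its microRNAs moved the members' median to -0.65 and -1.04, and the distance from the median of all genes stayed at -0.66 by construction. MicroRNA markers of embryo and oocyte lay below N2 in 8 of 8 cases (median -0.27, 0 called) at a summed 7573 to 9296 fpm against 9634 to 10433 fpm in N2. Soma markers lay above N2 in 4 of 4 cases (median 0.30, 0 called), at 2427 to 2922 fpm against 2043 to 2665 fpm. The part of these markers in the result was not tested.

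**Figure D2:**
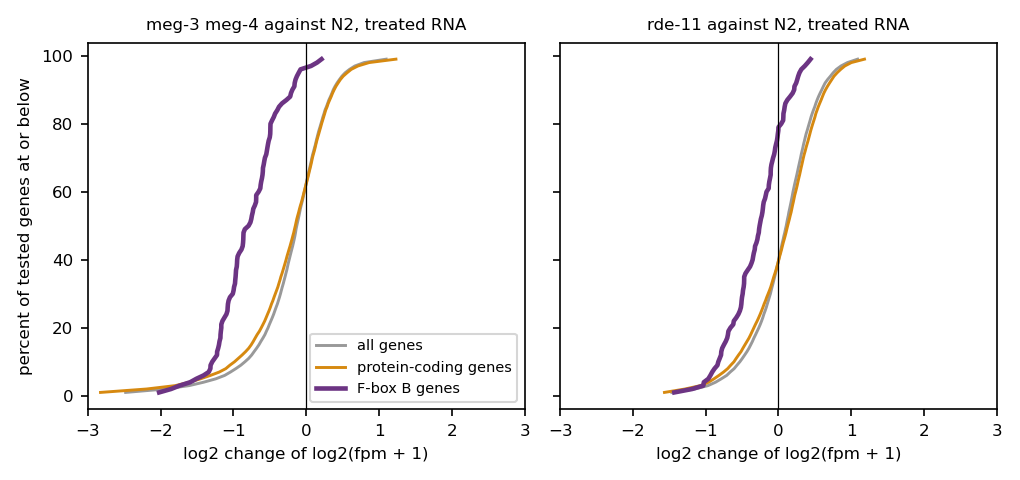
Cumulative share of tested genes (vertical axis, percent) at or below a log2 change against N2 (horizontal axis) in treated RNA, for all genes, protein-coding genes and F-box B genes, in meg-3 meg-4 on the left and rde-11 on the right. The curve of the F-box B genes lies to the left of the others over most of its length, with medians of -0.79 and -0.26 against -0.13 and 0.11 for all genes.

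On the log2(fpm + 1) scale fbxb-95 had the largest fall in the double mutant. The authors' deposited table gives larger falls for fbxb-56 (-2.24) and, with no adjusted p, for fbxb-74 (-3.38), fbxb-47 (-3.37), fbxb-43 (-2.52) and fbxb-54 (-2.48). Of these, fbxb-74 and fbxb-43 are named after the values were seen. fbxb-95 stood at 108 and 124 fpm in N2 and at 20.7 and 24.1 fpm in the double mutant, whereas rde-11 held 103 and 108 fpm. Its rde-11 libraries thus lay beside N2, and only the double mutant libraries were low. N2 held 5.18 times as much as the double mutant (log2 change -2.32, SE 0.22, limma adjusted p = 0.00071, edgeR adjusted p = 0.00091), and the authors' deposited table gives -2.16 (adjusted p = 1.1e-10).

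fbxb-56 was lower in level but changed by a similar factor. It held 38 and 46 reads in N2, which is 7.74 and 11 fpm, and 10 and 7 reads in the double mutant, which is 2.11 and 1.33 fpm. In rde-11 it stood at 8.65 and 6.24 fpm, between the 2 other strains for 1 library and within the N2 range for the other. The fall in the double mutant was -1.93 (SE 0.30, limma adjusted p = 0.00678, edgeR adjusted p = 0.00911). fbxb-56 and fbxb-95 were the 2 members called under all 14 alternative settings.

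fbxb-98, the neighbour of fbxb-95, stood at 27.5 and 31.5 fpm in N2, 9.30 and 10.4 fpm in the double mutant and 23.6 and 25.6 fpm in rde-11. Its fall in the double mutant was -1.49 (SE 0.24, limma adjusted p = 0.00776). fbxb-7, on chromosome V, stood at 166 and 179.5 fpm in N2, 72.3 and 65.4 fpm in the double mutant and 105 and 95.4 fpm in rde-11. For fbxb-7 the strains were separate in the order N2, rde-11, the double mutant, with falls of -1.32 (SE 0.18, limma adjusted p = 0.00434) and, in rde-11, -0.79 (SE 0.14, limma adjusted p = 0.0029). fbxb-17 stood at 17.9 and 21.7 fpm in N2 and at 4.23 and 7.96 fpm in the double mutant (-1.60, SE 0.32, limma adjusted p = 0.0212). fbxb-47 held 21 and 12 reads in N2 and 2 and 1 in the double mutant (-1.80, SE 0.32, limma adjusted p = 0.0129).

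Further falls in the double mutant came at lower or middle levels. fbxb-92 went from 47.3 and 57.3 to 21.8 and 18 fpm, fbxb-93 from 21.4 and 26.7 to 9.09 and 9.47 fpm, and fbxb-26 from 53.0 and 49.2 to 20.9 and 23.1 fpm. In none of these did the strains overlap, and their log2 changes were -1.35, -1.28 and -1.18. fbxb-69, fbxb-103 and fbxb-22 changed by -1.23, -1.20 and -1.20, of which fbxb-103 overlaps the carotenoid oxygenase gene bcmo-2. None of these was called by edgeR or DESeq2. The call of fbxb-69 also ended with no filter, and that of fbxb-103 with no filter and with the median gene centred. fbxb-45 went from 111 and 104 to 61.1 and 56.1 fpm, with rde-11 at 129 and 114 fpm, above N2. Its fall against N2 was -0.86 (SE 0.19, limma adjusted p = 0.0353), and this call ended in edgeR (adjusted p = 0.0797), in DESeq2 and with either centring. The remaining called members lay between -1.18 and -1.0.

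How many members passed depended on the tool and on single libraries. edgeR called 14 of the 22 and DESeq2 9, and the authors' deposited table calls 8. Without N2 replicate 1 limma called 5 members (fbxb-17, fbxb-56, fbxb-69, fbxb-95 and fbxb-98) and without N2 replicate 2 it called 3 (fbxb-47, fbxb-56 and fbxb-95), so that the calls of fbxb-7, fbxb-97 and fbxb-100 ended without either. Without replicate 1 or 2 of the double mutant it called 35 and 32.

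**Figure D3:**
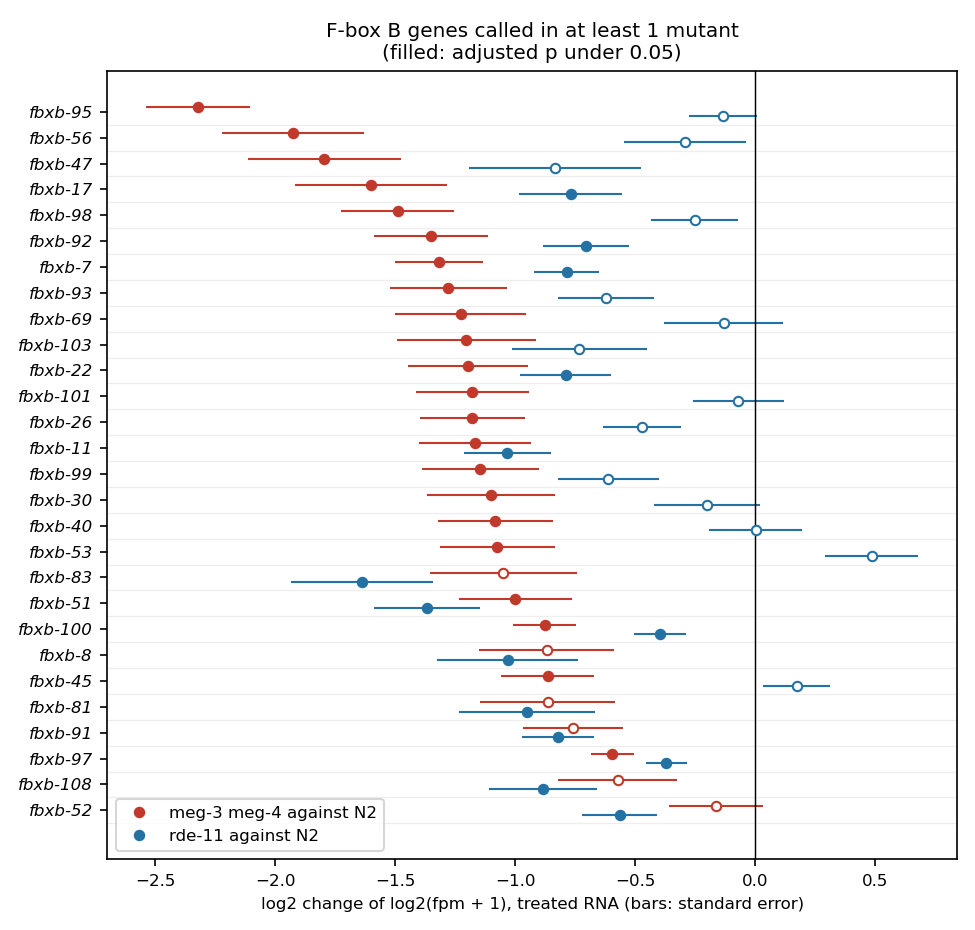
Log2 change against N2 in treated RNA (horizontal axis, on the log2(fpm + 1) scale) of the 28 F-box B genes called in at least 1 mutant; points are limma estimates, bars are standard errors, and filled points had an adjusted p under 0.05. fbxb-95 and fbxb-56 lie at -2.32 and -1.93 in meg-3 meg-4 and at -0.13 and -0.29 in rde-11, and fbxb-83 has the largest fall in rde-11, -1.64.

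In rde-11, 14 of the 78 F-box B genes tested in treated RNA lost small RNAs and none gained them. Of all genes tested, 4.48% fell and 6.34% rose, and of protein-coding genes 5.70% and 9.12%. Of the 14 falls, 4 were at least 2-fold, and all 14 had a mean of at least 1 fpm in both strains. The members' median change was -0.26, against 0.11 for all genes and 0.13 for protein-coding genes, and 61 of 78 lay below 0. In 39 members every rde-11 library lay below every N2 library and in 5 members above, where 20.4% and 34.4% of all genes did so. Of the 78 members, 72 had a mean of at least 1 fpm in both strains, and the median and counts also include the others. The comparison shares its N2 libraries with that of the double mutant, so values of the 2 are given side by side and not as separate evidence. Embryo and oocyte markers lay below N2 in 2 of 8 cases and soma markers in 3 of 4, with 0 called, at summed levels of 9839 to 11559 fpm and 2071 to 2142 fpm.

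The largest fall in rde-11 was that of fbxb-83, on chromosome III, from 16.5 and 10.5 fpm in N2 to 2.56 and 4.83 fpm. The double mutant stood between them, at 4.86 and 7.01 fpm. The change in rde-11 was -1.64 (SE 0.30, limma adjusted p = 0.00399) and that in the double mutant -1.05 (limma adjusted p = 0.0936). fbxb-83 overlaps the annotated gene T17A3.12, and its call ended when no filter was set (limma adjusted p = 0.0731).

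fbxb-51 stood at 16.9 and 15.5 fpm in N2, 5.31 and 6.04 fpm in rde-11 and 7.82 and 7.39 fpm in the double mutant. Both mutants were separate from N2, with rde-11 the lowest, and it changed in rde-11 by -1.37 (SE 0.22, limma adjusted p = 0.00183) and in the double mutant by -1.0 (SE 0.23, limma adjusted p = 0.0435). The call of fbxb-51 in the double mutant ended in edgeR, in DESeq2, with either centring, with no filter and without either N2 library. fbxb-11 stood at 55.4 and 63.0 fpm in N2, 25.2 and 32.0 fpm in rde-11 and 29.2 and 22.7 fpm in the double mutant, where the mutants overlapped each other and not N2. It fell in rde-11 (-1.03, SE 0.18, limma adjusted p = 0.00314) and also in the double mutant (-1.17, SE 0.23, limma adjusted p = 0.0226). fbxb-91 stood at 92.1 and 104 fpm in N2, 54.8 fpm in each rde-11 library and 62.8 and 52.3 fpm in the double mutant. It fell in rde-11 (-0.82, SE 0.15, limma adjusted p = 0.00417), and its change in the double mutant was -0.76 (SE 0.21, limma adjusted p = 0.0737).

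fbxb-8, fbxb-81 and fbxb-108 fell in rde-11, with changes of -1.03, -0.95 and -0.89, from N2 means of 8.78, 5.63 and 12.2 fpm. fbxb-52 went from 72.1 and 70.7 fpm in N2 to 44.4 and 51.7 fpm in rde-11 (-0.56, SE 0.16, limma adjusted p = 0.0387) and stood at 63.0 and 64.2 fpm in the double mutant (-0.16, limma adjusted p = 0.76). fbxb-22, fbxb-17 and fbxb-92 fell in rde-11, with changes of -0.79, -0.77 and -0.70, against -1.20, -1.60 and -1.35 in the double mutant. For fbxb-46, the rde-11 libraries at 148 and 150.2 fpm lay above the N2 libraries at 141 and 139 fpm, and the difference did not pass the test (0.08, SE 0.13, limma adjusted p = 0.739).

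edgeR called 18 members lower in rde-11, among them all 14, and DESeq2 called 10 in all. The authors' deposited table calls 11, of which 10 were among the 14 and the other was fbxb-85 (-0.45, adjusted p = 0.0486). Scaling moved the count: with the median gene centred 22 members fell and with microRNAs centred 5. With all 3 strains in 1 fit 6 fell, and without a filter on low values 4. Without N2 replicate 1 it was 9 and without rde-11 replicate 2 it was 8. The call of fbxb-52 ended without any 1 of the 4 libraries, and that of fbxb-8 without rde-11 replicate 1. Those of fbxb-81 and fbxb-108 ended without either rde-11 library, and also without N2 replicate 1 for fbxb-81 and N2 replicate 2 for fbxb-108. The call of fbxb-17 ended without N2 replicate 2 or rde-11 replicate 2, and that of fbxb-22 without N2 replicate 1 or rde-11 replicate 2. That of fbxb-92 ended without N2 replicate 2 or rde-11 replicate 1. fbxb-7, fbxb-11, fbxb-51 and fbxb-91 were called under all 14 alternatives.

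Set against each other in treated RNA, the double mutant was lower than rde-11 for 20 of 78 members and higher for none, with a median difference of -0.53. Of all genes tested, 12.6% were lower and 4.55% higher, and the median difference was -0.28. Among protein-coding genes 16.7% were lower and 5.48% higher. Of F-box A genes, 27 of 104 were lower and 6 higher (26.0% and 5.77%). Of F-box C genes, 6 of 26 were lower and 5 higher (23.1% and 19.2%). The lower share of F-box B genes, 25.6%, was thus close to that of the sister classes. Of the SCF list described below, 7 of 37 were lower and 2 higher. Both mutants had a mean of at least 1 fpm in 64 of the 78 members, and the median and counts also include the others. In 54 members every library of the double mutant lay below every rde-11 library and in 7 above, where 42.2% and 15.1% of all genes did so. The counts depended on the scaling and the tool. With the median gene centred 5 members were lower and 1 higher, where 5.05% of all genes were lower. edgeR called 7 lower and 2 higher, 8.97% and 2.56% of members against 5.99% and 7.46% of all genes. DESeq2 called 5 and 1, 6.41% and 1.28% of members against 4.61% and 5.27% of all genes, so under these settings the lower share lay closer to that of all genes. With microRNAs centred 28 were lower, where 15.8% of all genes were. With the median gene centred the members' median difference was -0.16, against 0.09 for all genes. Without rde-11 replicate 1, fbxb-53, fbxb-95 and fbxb-98 remained called (3 in all), and without rde-11 replicate 2, fbxb-45, fbxb-53, fbxb-56 and fbxb-95 (4 in all). Embryo and oocyte markers were lower in the double mutant in 7 of 8 cases, with mir-39 and mir-40 called by limma. Soma markers were higher in 4 of 4 (median 0.36, 0 called by limma). The marker calls also depended on the tool. edgeR did not call mir-39 or mir-40 (edgeR adjusted p = 0.977 and 0.592). It did call the soma markers mir-1, lin-4 and let-7 (edgeR adjusted p = 0.032, 0.0303 and 0.0194). The part of both lists in the result was not tested.

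On the log2(fpm + 1) scale fbxb-95 differed most between the mutants, with rde-11 at 4.71 times the level of the double mutant (log2 difference -2.19, SE 0.18, limma adjusted p = 5.7e-05). fbxb-53 stood at 16.9 and 14.8 fpm in N2, 6.98 and 7.01 fpm in the double mutant and 23.2 and 21.9 fpm in rde-11. The mutants lay on opposite sides of N2 for fbxb-53 without overlap, and rde-11 held 3.23 times the level of the double mutant (-1.56, SE 0.21, limma adjusted p = 0.00108). Its fall in the double mutant against N2 was -1.07 (SE 0.24, limma adjusted p = 0.0345, edgeR adjusted p = 0.0578) and its change in rde-11 0.49, not called. fbxb-53 overlaps F36H5.10. fbxb-95 and fbxb-53 were the 2 members called lower in the double mutant than in rde-11 under all 13 alternatives. The difference was -1.64 for fbxb-56, -1.24 for fbxb-98, -1.11 for fbxb-101, -1.08 for fbxb-40 and -1.04 for fbxb-45 (limma adjusted p = 0.00485, 0.00384, 0.00688, 0.00851 and 0.003). Among low members, fbxb-79, fbxb-54, fbxb-78 and fbxb-18 differed by -1.25, -1.12, -1.03 and -0.99, and none of these 4 was called by edgeR. fbxb-54 averaged 0.317 fpm in the double mutant and passed the filter through rde-11, and the other 19 called members had a mean of at least 1 fpm in both mutants.

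Many F-box B genes are neighbours. Counting members with at most 3 other annotated genes between them, 76 of the 109 lay in 21 runs of 2 or more, and 11 runs held 4 or more. On chromosome I, all 4 members of the run of fbxb-93, fbxb-56, fbxb-101 and fbxb-100 were called lower in the double mutant. Their changes ran from -1.93 to -0.88 and their levels in N2 from 9.36 to 552 fpm. Without either N2 library only fbxb-56 of these stayed called. Other runs had similar medians and no call in the double mutant. On chromosome II these were fbxb-21, fbxb-20, fbxb-16 and fbxb-15 (0 of 4 called, median -0.86), and the run of fbxb-107 to fbxb-111 (0 of 5, median -0.69). In rde-11, 1 of the 4 members of the run on chromosome I, fbxb-100, was called. On chromosome II, 3 of the 4 members of a run were tested in the double mutant, fbxb-97, fbxb-95 and fbxb-98, and fbxb-96 was not. The tested members were all called lower, from -2.32 to -0.59, but without N2 replicate 2 only fbxb-95 of them stayed called. In rde-11 fbxb-97 was called.

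On chromosome III, the 2 tested members of the run of fbxb-81 to fbxb-84, fbxb-81 and fbxb-83, changed by -0.95 and -1.64 in rde-11, both called, and by -0.86 and -1.05 in the double mutant, neither called. Between the mutants they differed by 0.09 and 0.59 (limma adjusted p = 0.848 and 0.256), so no difference was shown. In a run of 6 on chromosome II, fbxb-51 was called in both mutants, in the double mutant under 7 of 14 alternatives, and fbxb-52 in rde-11. The members nearest to them, fbxb-54, fbxb-50, fbxb-49 and fbxb-46, were not called in either mutant against N2. In a run of 6 on chromosome V around fbxb-57, 4 members were tested in the double mutant and 3 in rde-11, none was called by limma in either, and the median changes were -0.24 and -0.09. Neighbours that resemble each other can share reads, and no 2 members had identical values in all libraries. Some names in these runs were chosen for their place, after the values were seen.

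**Figure D4:**
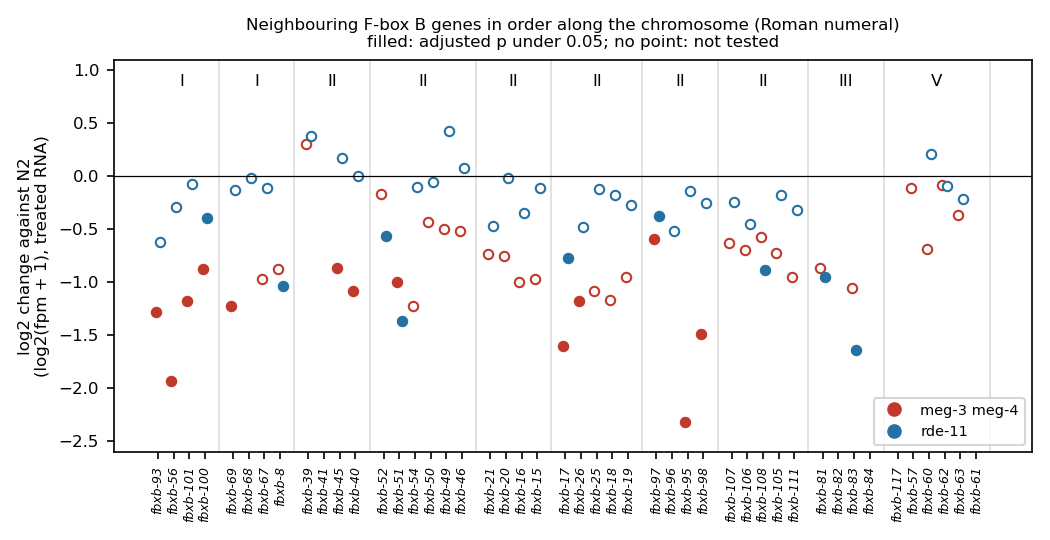
Log2 change against N2 in treated RNA (vertical axis, log2(fpm + 1) scale) of neighbouring F-box B genes, in order along the chromosome given by the Roman numeral, for the runs of 4 or more with a tested member; filled points had a limma adjusted p under 0.05. All 4 members of the first run are filled for meg-3 meg-4 (-1.93 to -0.88), and in the run on chromosome III the filled points are those of rde-11.

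Calls were counted by level. Among the 12 members that averaged 50 fpm or more in treated RNA, 5 fell in the double mutant and 5 in rde-11, where 14.6% and 8.82% of all genes at that level fell. Of the 19 between 10 and 50 fpm, 12 fell in the double mutant, with a median change of -1.10 against -0.17 for all genes at that level, of which 8.36% fell. In rde-11, 4 of these 19 fell, where 4.78% of such genes did. Of members between 1 and 10 fpm, 5 of 45 tested fell in the double mutant and 5 of 46 in rde-11, where 3.31% and 3.03% did.

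Untreated RNA held few small RNAs of the family. F-box B genes summed to 25.8 ± 2.89 fpm in N2, 17.4 ± 1.53 fpm in the double mutant and 27.4 ± 3.14 fpm in rde-11, from 79 to 138 reads per library. In N2, 71 of the 109 members had no read in either untreated library. The treated total was 260 times the untreated total in N2, 285 times in the double mutant and 210.0 times in rde-11. Without the 4 highest members these ratios were 137, 162 and 111, while for all protein-coding genes together the ratio was 16.5, 16.9 and 16.5. For F-box A genes it was 120.0, 103 and 128, and for F-box C genes 168, 173 and 112. All of these compare libraries of different make-up: protein-coding genes held 60.7% ± 2.03 of reads in treated and 3.67% ± 0.626 in untreated RNA of N2.

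Among single members, fbxb-14 stood at 6.36 and 6.85 fpm in untreated N2, fbxb-37 at 6.14 and 4.80 fpm, fbxb-97 at 5.48 and 3.88 fpm, fbxb-85 at 1.75 and 0.685 fpm and fbxb-52 at 0.657 and 0.913 fpm. These had the highest means, although fbxb-46 and fbxb-7 lay close to fbxb-52 (means of 0.781 and 0.772 against 0.785 fpm). fbxb-37 stood at 147 and 128 fpm in treated N2. Its treated level was 25.2 times its untreated level in N2, 37.3 times in the double mutant and 19 times in rde-11, where fbxb-14 had ratios of 288, 454 and 271 and fbxb-97 of 403, 257 and 245. In treated RNA fbxb-37 stood at 92.0 and 88.5 fpm in the double mutant and at 118 and 111 fpm in rde-11, all below N2, with neither difference called (-0.60, limma adjusted p = 0.11, and -0.26, limma adjusted p = 0.255).

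**Figure D5:**
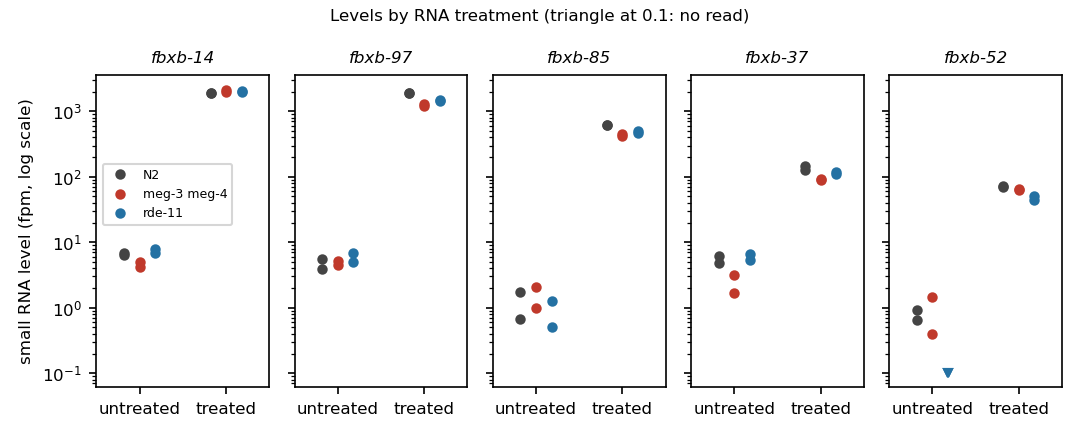
Small RNA level (vertical axis, fpm on a log scale) of the 5 F-box B genes highest in untreated N2, in untreated and treated RNA; each point is 1 library, colour gives the strain, and a triangle at 0.1 marks no read. Points rise by 2 orders of magnitude or more for fbxb-14 and fbxb-97 and by less for fbxb-37, from 6.14 and 4.80 to 147 and 128 fpm in N2.

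Every member that could be tested was higher in treated than in untreated RNA: 68 of 68 in N2, 49 of 49 in the double mutant and 62 of 62 in rde-11, where 57%, 57.1% and 55.3% of all genes tested were higher. Among protein-coding genes 87.9%, 87.3% and 87.6% were higher, among F-box A genes 97.6%, 96% and 97.4%, and among F-box C genes 100% in each strain. Of the F-box B genes tested, 4, 4 and 3 had a mean of at least 1 fpm in both kinds of RNA. The others passed the filter through the treated libraries alone, so these counts are given as a description. With the median gene centred, 15 members of N2 were higher and 36 lower. fbxb-14, fbxb-85 and fbxb-97 were higher in all 3 strains under that scaling too, and fbxb-37 was not called.

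In untreated RNA 4 members could be tested in each mutant, and limma called 0 against N2 (0.119% of all genes were called lower and 0.119% higher in the double mutant, and 0.198% and 0.396% in rde-11). In the double mutant, 1 reached an unadjusted p under 0.05, fbxb-37, at 3.19 and 1.66 fpm (-0.95, SE 0.36, limma adjusted p = 0.329), and in rde-11 0 did. edgeR and DESeq2 called 0 in either mutant, with 0 at an unadjusted p under 0.05. With 104 and 127 reads for the whole family in the N2 libraries, changes of other members in untreated RNA were not detectable at this depth.

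Whether a mutant's change differed between the 2 kinds of RNA was tested as an interaction. In the double mutant, 2 of 59 members tested passed with a more negative change in treated RNA, fbxb-56 and fbxb-95, and 0 with a more positive one. Of all genes 2.89% and 0.492% did, so the members' share lay near that of all genes. In untreated RNA fbxb-56 held 0 and 1 read in N2 and 0 and 1 in the double mutant, and fbxb-95 held 1 and 3 reads in N2 and 1 and 0 in the double mutant, so both passed the filter through treated RNA alone. On log2(fpm + 1) their untreated values lie at the floor, and the test largely restates the fall in treated RNA. edgeR and DESeq2 called 0, with 3 and 1 at an unadjusted p under 0.05. The call of fbxb-56 ended without N2 treated replicate 2, treated replicate 2 of the double mutant or any 1 of the untreated libraries. That of fbxb-95 ended without any 1 of the treated libraries, N2 untreated replicate 1 or untreated replicate 1 of the double mutant (limma adjusted p from 0.0305 to 0.127 over the libraries left out, and for fbxb-56 from 0.0418 to 0.125). In rde-11, limma called 0 of 64 members (0.361% of all genes were called lower and 0.0946% higher), 11 reached an unadjusted p under 0.05, and edgeR and DESeq2 called 0, with 3 and 1 at an unadjusted p under 0.05.

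The core of the SCF ligase was followed as the pathway in which F-box proteins act. Of 45 listed genes for cullin, RING, SKP1-like, COP9 signalosome and neddylation proteins and for F-box proteins with names of their own, 37 were tested in treated RNA. In the double mutant limma called 0 of them, 9 reached an unadjusted p under 0.05, and edgeR and DESeq2 called 0, with 8 and 1 at an unadjusted p under 0.05. The median change was -0.28. In rde-11, 2 fell and 2 rose (5.41% each way, near the 4.48% and 6.34% of all genes), with a median of 0.20. edgeR called 3 lower and 1 higher, and DESeq2 1 each way. Those that fell were the SKP1-like genes skr-10 (43.0 to 22.8 fpm, -0.89, limma adjusted p = 0.00775) and skr-9 (2.19 to 0.295 fpm, -1.34, limma adjusted p = 0.0316), of which skr-9 passed the filter through N2 alone. Those that rose were csn-3, a COP9 signalosome subunit gene (35.7 to 66.6 fpm, 0.89, limma adjusted p = 0.0169), and the F-box gene skpt-1 (21.9 to 35.7 fpm, 0.68, limma adjusted p = 0.0283, edgeR adjusted p = 0.0554).

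In the sister classes most calls against N2 were falls, with some rises. In the double mutant, 24 of 102 F-box A genes tested fell and 2 rose, and 9 of 27 F-box C genes fell and 3 rose, with medians of -0.40 and -0.55. The shares that fell were 23.5% and 33.3%, against 28.6% of F-box B genes and 6.72% of all genes, and 1.54% of all genes rose. In rde-11, 12 of 104 F-box A genes fell and 7 rose, and 2 of 28 F-box C genes fell and 1 rose, with medians of -0.13 and -0.28. There 11.5% and 7.14% fell and 6.73% and 3.57% rose, where 4.48% of all genes fell and 6.34% rose. The differences between the classes were not tested. Of 4 listed genes reported as targets of the Argonautes ERGO-1 and NRDE-3, E01G4.5 fell in both mutants (519 fpm in N2, 137 in the double mutant and 102 in rde-11). Y47H10A.5 rose in the double mutant and fell in rde-11 (1814, 3033 and 619 fpm), and K02E2.6 fell in rde-11 (1758, 1839 and 865 fpm).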

How the data were processed

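Small RNA was measured in 12 libraries, 2 for each of 3 strains and 2 RNA treatments. The values deposited by the authors are fpm, a CPM unit with no length correction, beside their log2 fold changes and adjusted p-values. Tools named in the submitters' processing notes are cutadapt, Bowtie2, HTSeq and DESeq2, with build ce10. Strand use and multiply aligned reads are not stated. The 8 columns of averages were not used, and 0 other per-sample columns were left over. N2 columns repeated between tables held equal values.

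All fpm values (100%) were whole multiples of 1 read (tolerance 0.01 reads), so reads were recovered for edgeR 4.0.16 and DESeq2 1.42.0 as alternatives. Because values are normalized, the main test was limma 3.58.1 (R 4.3.3) on log2(fpm + 1) with a trended prior, where the gene averaged 1 fpm or more, with Benjamini-Hochberg adjustment over all genes tested and calls under 0.05. Each fit held the groups compared. The mutants were compared in 1 fit of 3 strains, and interactions used 8 libraries. Alternatives were other tools, scalings, filters, pseudocounts (0.1 and 5), a replicate block and leaving out each library. Code was tested on simulated data. Names, classes, exon lengths, neighbours and overlaps came from Ensembl and RefSeq annotations of WBcel235, which is not the deposited build, so no coordinates are given. They matched 41759 identifiers.

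Members named are the 10 highest in treated N2, the 5 highest in untreated N2, and up to 12 called in each direction of a comparison (6 for interactions). Other listed genes were named where called, up to 4 a direction. The members and lists were chosen with earlier results of these data known. Same-numbered replicates had correlated deviations of 0.149 to 0.351 over 2 pairs and no shared batch in the labels, so numbers were not taken to pair libraries.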

Additional observations from a re-analysis of the deposited data

Results flagged for a closer look

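For fbxb-56 and fbxb-95, a test of the difference between treated and untreated RNA in the change of meg-3 meg-4 against N2 passed the threshold. The difference was -1.91 for fbxb-56 (SE 0.37, limma adjusted p = 0.0231) and -1.93 for fbxb-95 (SE 0.36, limma adjusted p = 0.0193), on the log2(fpm + 1) scale. In untreated RNA each had 0 to 3 reads per library in both strains, so on this scale the test largely restates the fall in treated RNA and does not show that the RNA treatments differ for these genes. Of the members tested, 2 of 59 passed, near the 2.89% of all genes. With a pseudocount of 0.1 the limma adjusted p-values were 0.625 and 0.91, with differences of -2.343 for fbxb-56 and -0.835 for fbxb-95. With edgeR both adjusted p-values were 1, with differences of -2.25 for fbxb-56 and -0.37 for fbxb-95.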

How the results depend on the processing

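For the double mutant against N2 in treated RNA, the count of members that fell (22) was 9 in DESeq2, 14 in edgeR, 44 with a replicate block and 3 to 35 leaving out 1 library, and the share of higher calls among all genes went from 18.7% to 24.5% with the median gene centred and 8.39% with microRNAs centred. For rde-11 (14) it was 6 with all strains in 1 fit, 22 with the median gene centred, 5 with microRNAs centred, 4 with no filter and 8 to 10 leaving out 1 library, and the replicate block gave 20 lower and 1 higher. There the share of higher calls among all genes, 58.6%, was 26.8% with the median gene centred. For the double mutant against rde-11 (20 lower, 0 higher) it was 5 and 1 in DESeq2, 7 and 2 in edgeR, 5 and 1 with the median gene centred, 9 lower with no filter, 31 lower with the replicate block and 3 to 18 leaving out 1 library, and the share of higher calls, 26.6%, was 61.0% with the median gene centred. For the interaction of the double mutant (2 lower) it was 0 in DESeq2, edgeR and with a pseudocount of 0.1, 1 with the median gene centred or no filter, 8 where genes averaged 5 fpm or more, 24 with a pseudocount of 5, 4 with the replicate block and 0 to 2 leaving out 1 library, and for that of rde-11 (0) it was 1 at 5 fpm and 5 with a pseudocount of 5. Treated against untreated RNA gave 35, 20 and 31 higher at 5 fpm in N2, the double mutant and rde-11, and with the median gene centred 15, 9 and 11 higher and 36, 29 and 32 lower. In the double mutant it was 86 with no filter. Among named values, 31 turned direction, none past the threshold after turning.

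With the median gene centred these were fbxb-14 (-0.129), fbxb-45 (-0.045) and fbxb-46 (-0.133) in treated rde-11, fbxb-14 (-0.019) and fbxb-37 (-0.046) in untreated rde-11, fbxb-37 (0.028), fbxb-85 (0.227) and fbxb-97 (0.143) between the mutants, and fbxb-37 treated against untreated in N2 (-0.058) and rde-11 (-0.279), of which the last pair had been called. With microRNAs centred they were fbxb-14 in the treated double mutant (-0.127) and between the mutants (-0.243), and fbxb-97 in the untreated double mutant (-0.080). In edgeR and DESeq2 they were fbxb-14 (-0.049 and -0.024) and fbxb-46 (-0.053 and -0.028) in treated rde-11 and fbxb-85 (0.176 and 0.182) and fbxb-97 (0.095 and 0.101) between the mutants, and in edgeR alone fbxb-14 (-0.047) and fbxb-37 (-0.086) in untreated rde-11. Leaving out 1 library gave -0.154 to 0.555 for fbxb-85 and -0.145 to 0.263 for fbxb-97 in the untreated double mutant, -0.026 to 0.274 for fbxb-37 and -0.564 to 0.088 for fbxb-85 in untreated rde-11, and -0.015 to 0.080 for fbxb-14 between the mutants. The cause of these changes was not tested. With 2 pairs the replicate numbers do not show pairing (correlations 0.149 to 0.351). MicroRNA centring was not run for interactions or for treated against untreated RNA. In untreated RNA of N2, 71 of 109 members had no read, which limits what can be compared there.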
